A study of Mus musculus with 10 samples.

Results

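The endoplasmic reticulum (ER) is the compartment in which secreted and membrane proteins are folded, and 36 genes of its chaperones, disulfide isomerases, degradation machinery, translocation channel and stress sensors were followed here in mouse hearts that overexpress SPOP. They were chosen by name as genes of these roles, with earlier results of these data known. All 36 were found among the 24888 genes of the deposited table. SPOP brings substrates to the cullin-3 ubiquitin ligase, and the study's title sets it in pathological cardiac hypertrophy and heart failure. RNA sequencing of poly(A) RNA from heart tissue gave 5 libraries from SPOP-overexpressing hearts (SPOP_CKI) and 5 from control mice titled wild type whose genotype is given as Myh6Cre (Cre_control), so that controls carry the Cre transgene too. Per the series' design text, Cre is driven by the alpha-myosin heavy chain promoter, which is active in cardiomyocytes. All animals are labelled male and described as 8 to 10 weeks old, under sham conditions, and the inserted SPOP allele is not described further in the labels.

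Proteins enter the ER through the Sec61 channel and are held by the Hsp70 chaperone BiP (Hspa5), the Hsp90 chaperone GRP94 (Hsp90b1) and the lectin chaperones calnexin and calreticulin while disulfide isomerases form and rearrange their cystine bonds. Proteins that fail to fold are drawn back to the cytosol and degraded by the proteasome, a route called ER-associated degradation. When unfolded protein accumulates, the sensors IRE1 (Ern1), ATF6 and PERK (Eif2ak3) start the unfolded protein response, in which the transcription factors XBP1 and ATF6 raise chaperone and degradation genes. In cardiomyocytes the ER is continuous with the sarcoplasmic reticulum that stores calcium for contraction.

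Spop itself was at 36028, 25308, 40631, 28689.9 and 28830.4 in SPOP_CKI libraries 1 to 5 and at 3698, 3726, 3526, 3078 and 3098 in Cre_control libraries 1 to 5, in reads scaled by the authors' size factor of each library, the unit of every level below. Depth was 15316293 to 17114869 reads per library. Library SPOP_CKI 3 stood apart, with 1968 of the 14212 tested genes at 0 against 5 to 61 in the other 9 libraries. Labelled male like the rest, libraries SPOP_CKI 1, SPOP_CKI 3 and Cre_control 5 held 4491 to 6578 scaled reads of Xist, the RNA of the inactive X chromosome, and none of the Y-linked genes Ddx3y, Eif2s3y, Kdm5d and Uty, which the other 7 libraries all contained. Cardiomyocyte markers summed to 396409 to 734418 in SPOP_CKI and 665158 to 860797 in Cre_control. Of the 12, 1 passed as higher and 3 as lower (8.33% and 25.0%), with a median log2 fold change of −0.62. Over all tested genes 10.0% passed as higher and 12.3% as lower, the shares to set beside each marker count here. The cardiomyocyte sum was the largest of the marker sums in each of the 10 libraries, as the labelled tissue has it. Of other cell types, markers of activated fibroblasts summed to 8508 to 60223 against 2321 to 4233 (5 of 9 tested passed as higher, 0 as lower), and were highest in libraries SPOP_CKI 4 and 2, at 60223 and 33504. General fibroblast markers had 1 of 12 higher and 1 lower (sums 61118 to 154392 against 62308 to 80105), macrophage markers 2 of 11 higher and 1 lower (6738 to 29714 against 7000 to 12116), endothelial markers 0 of 10 higher and 6 lower (21111 to 31077 against 46488 to 62689), and mural cell markers 0 of 9 higher and 1 lower (38818 to 73379 against 61248 to 71346). Plasma and B cell markers, from cells rich in ER chaperones, summed to 213 to 1038 against 505 to 673 with 0 of 7 passing. The sums of libraries SPOP_CKI 2 and 4, 1038 and 827, were above every Cre_control library. Those of libraries 1, 3 and 5, 416, 213 and 497, were below every one, and Jchain was at 0 in libraries SPOP_CKI 3 and 5. T and natural killer cell markers summed to 0 to 119 against 23 to 110 (0 of 1 passing), and erythroid markers to 5317 to 8897 against 13997 to 28131 (0 of 5 higher, 4 lower). The 6 skeletal muscle markers found, without Myh1, Myh2 and Myh4, summed to 7553 to 12235 against 17291 to 27661. Of the 4 tested, 0 were higher and 1, Ckm, was lower. Whether these reads came from skeletal muscle was not tested. The labels call the libraries repeats and say no more of their source, so the p-values below measure the spread between these libraries, which may in part be technical. In bulk tissue such as this, fewer cells of a type and less RNA per cell cannot be told apart.

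Genes were tested with limma on log2(scaled reads + 1), and a gene is said to have risen or fallen where its adjusted p over all 14212 tested genes was under 0.05. Of the 36 members, 35 passed the filter on low values, and of these 18 rose, 1 fell and 16 did not pass. Over all tested genes, 10.0% rose and 12.3% fell. Since the members were chosen with earlier results of these data known, this comparison is a description. The median log2 fold change of the 35 members was 0.60, against −0.11 for all tested genes. In 17 of the 35 members every SPOP_CKI library lay above every Cre_control library, and in 1 every SPOP_CKI library lay below (9.01% and 12.3% of all tested genes). The folding genes carried most of the increases, while the degradation genes and the sensors mostly did not pass. Without the 3 libraries with Xist reads, 19 members rose and 1 fell (13.7% and 17.0% of all tested genes). Without SPOP_CKI libraries 2 and 4, which had the highest activated fibroblast markers, 13 rose and 2 fell (7.37% and 8.89%). Among the SPOP_CKI libraries these 2 also had the highest sums of general fibroblast, macrophage, plasma and B cell, and T and natural killer cell markers. Their cardiomyocyte sums were the lowest, at 396409 and 440587. On recovered whole reads, edgeR called 18 members higher and 1 lower (11.8% and 10.4% of all tested genes) and DESeq2 24 and 1 (14.9% and 14.3%). Without SPOP_CKI library 3, 19 rose and 1 fell (13.7% and 17.3%), and with quantile normalization also 19 and 1 (13.2% and 13.6%). The scaling of the libraries moved the median of all genes from −0.11 to 0.03 under quantile normalization, and the median of the members then moved from 0.60 to 0.71. The authors' deposited table lists 19 members as higher and 1 as lower at an adjusted p under 0.05 (8.26% and 8.08% of the genes with a p-value there). The 19 called members here are all among those 20, and the additional gene is Pdia5.

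**Figure D1:**
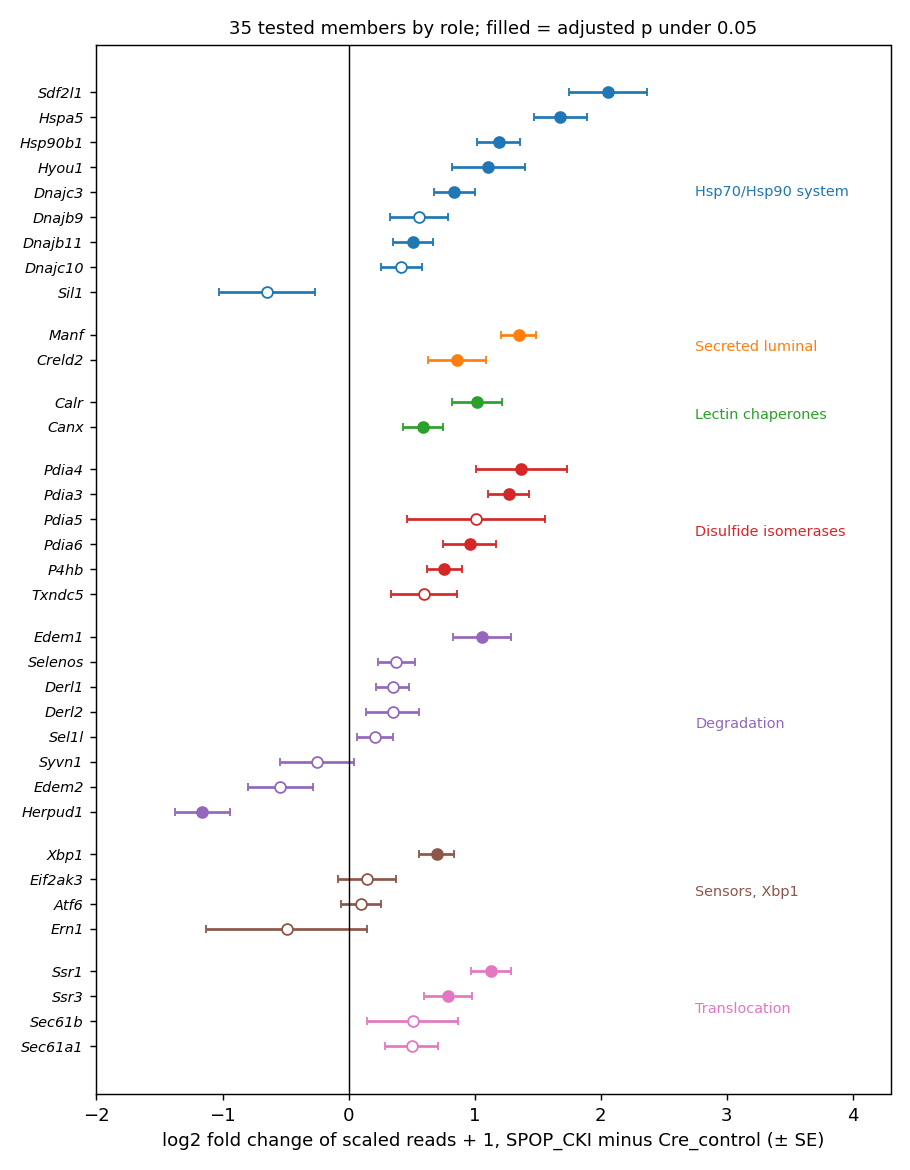
Log2 fold change (SPOP_CKI minus Cre_control, with its SE) of the 35 tested members, grouped and coloured by role. Filled points passed at an adjusted p under 0.05; the chaperones and isomerases lie mostly to the right of 0, and Herpud1, at −1.16, is the filled point to its left.

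BiP, the product of Hspa5, is the ER's central chaperone and also binds the stress sensors and keeps them inactive. Hspa5 (ENSMUSG00000026864, mm10 chromosome 2, 34771970 to 34777547) stood at 12043, 13749.6, 19042, 12693 and 19398 in SPOP_CKI libraries 1 to 5 and at 5110.2, 5602, 4196, 3354 and 5781 in Cre_control libraries 1 to 5. The lowest SPOP_CKI library was above the highest Cre_control library by a wide margin, and libraries SPOP_CKI 3 and 5 were the highest. The means were 15385 ± 3556 and 4809 ± 1019 (SD, n = 5 each), a 3.2-fold difference (log2 fold change 1.68 with SE 0.21 and limma adjusted p = 0.000646). Per kilobase of gene length, Hspa5 went from 1137 scaled reads in Cre_control, below P4hb (1389) and Herpud1 (1444), to 3638 in SPOP_CKI, the highest level of the members in that group.

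The promoter of Hspa5 is shown because it holds the ER stress response element (ERSE), the sequence through which ATF6 and XBP1 are known to act together with the factor NF-Y. RefSeq's window on GRCm38.p6 (chr2:34771840-34772139, plus strand) runs from 250 bases before RefSeq's start of the gene, at 34772090, to 50 after it. That start lies 120 bases inside the gene as the deposited table bounds it (34771970), and all distances below are from RefSeq's starts. The capitals mark the exact match, CCAAT and CCACG with 9 bases of any kind between them.
Hspa5 promoter: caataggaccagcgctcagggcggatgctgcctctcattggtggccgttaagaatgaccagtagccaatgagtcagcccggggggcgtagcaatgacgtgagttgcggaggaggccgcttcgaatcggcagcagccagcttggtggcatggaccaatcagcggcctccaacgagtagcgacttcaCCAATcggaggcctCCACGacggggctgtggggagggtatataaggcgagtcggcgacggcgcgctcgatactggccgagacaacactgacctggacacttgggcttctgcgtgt

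Such windows were at hand for 30 of the 36 members. Hyou1, Sil1, Manf, Derl1, Atf6 and Sec61a1 had none and were not searched for any element. ERSE was searched on both strands and was found in 9 of those 30 members and in 0.119% of all 32851 windows. The matches are shown for comparison, each read 5′ to 3′ on the strand that carries the motif, with the fixed letters in capitals and the 9-base spacer in lower case.
Hspa5: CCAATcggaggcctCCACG
Hsp90b1 upstream match: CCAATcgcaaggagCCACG
Hsp90b1 downstream match: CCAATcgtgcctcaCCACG
Dnajc3: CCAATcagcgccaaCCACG
Creld2: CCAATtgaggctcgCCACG
Calr: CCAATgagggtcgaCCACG
Canx: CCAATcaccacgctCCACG
Pdia6: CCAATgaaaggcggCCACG
Syvn1: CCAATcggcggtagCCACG
Derl3: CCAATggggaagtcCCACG

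The fixed ends are the same by the search, and the spacers differ from gene to gene. In Hspa5 the match starts 65 bases before RefSeq's start, in Syvn1 44 and in the upstream match of Hsp90b1 212. Of the 9 genes, 7 rose, Syvn1 did not pass and Derl3 was too low to test. Of the other 21 members with a window, all tested, 9 rose and 1 fell. The median log2 fold change was 0.91 over the 8 tested genes with a match and 0.56 over the 21 without. A match in a window of this length is a description of the sequence and shows no binding.

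GRP94 (Hsp90b1), the ER's Hsp90 chaperone, folds integrins, Toll-like receptors and insulin-like growth factors. Hsp90b1 was at 4296, 6118, 6728, 5163 and 6878 in SPOP_CKI libraries 1 to 5 and at 2585, 2715, 2367, 2121 and 2872 in Cre_control (log2 fold change 1.19 with SE 0.17 and limma adjusted p = 0.00126). As for Hspa5, no library of one group reached the other, and libraries 3 and 5 were the highest. Sdf2l1 encodes a cofactor that works with BiP and its J-domain partner ERdj3. Its values were 146, 202, 130.5, 193 and 145 in SPOP_CKI and 52.0, 46.1, 19.3, 46.1 and 36.4 in Cre_control, low in reads but with the largest fold change of the tested members, 4.16-fold (log2 fold change 2.06 with SE 0.31 and limma adjusted p = 0.00151). Library Cre_control 3 was the lowest of all.

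BiP's helpers divided into genes that rose and genes that did not pass. Dnajc3 (P58IPK), a J-domain protein that delivers clients to BiP, averaged 2280.0 ± 368 in SPOP_CKI and 1271 ± 164 in Cre_control (log2 fold change 0.84 with SE 0.16 and limma adjusted p = 0.00478), with SPOP_CKI libraries at 1737 to 2685 and Cre_control libraries at 1023 to 1451. Hyou1 (GRP170), a large Hsp70-like protein that exchanges BiP's nucleotide, was at 922, 1675, 597, 1042 and 2126 in SPOP_CKI and 594, 551, 503, 479 and 548 in Cre_control (log2 fold change 1.11 with SE 0.29 and limma adjusted p = 0.02). Libraries 2 and 5 carried the highest values, library 3 was just above the highest control, and the call was lost without Cre_control library 4. Dnajb11 (ERdj3) rose less, at 1022 ± 215 in SPOP_CKI and 705 ± 49.1 in Cre_control (log2 fold change 0.51 with SE 0.16 and limma adjusted p = 0.0395). That call was lost without any of the 5 Cre_control libraries in turn, without SPOP_CKI 2 or 4, without the libraries with Xist reads and with no filter on low values. With 1 library left out the log2 fold change of Dnajb11 was 0.41 to 0.61. Fewer genes were called in all when some libraries were left out, 1963 without Cre_control 1 against 3168. A call lost in this way, here or for other genes, need not mean a smaller fold change. Dnajb9 (ERdj4), a repressor of IRE1, was at 879.7 to 2091 against 647 to 1087 (adjusted p = 0.0983), and passed without SPOP_CKI 2. Dnajc10 (ERdj5), a J-domain reductase that opens disulfides before degradation, was at 1420.2 to 2128 against 1048 to 1442 (adjusted p = 0.0713), and passed with DESeq2 and array weights. Sil1, the other nucleotide exchange factor of BiP, was at 56.9 to 258 against 230.1 to 324 (log2 fold change −0.65, SE 0.38, adjusted p = 0.232), and without library SPOP_CKI 3, where it was lowest, the log2 fold change was −0.24. Thus of the 9 genes of the Hsp70 and Hsp90 system 6 rose and 0 fell, with a median log2 fold change of 0.84. These are 66.7% and 0.0%, against 10.0% and 12.3% of all tested genes.

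MANF and CRELD2 are small ER proteins that are induced by stress and can leave the cell. Manf (ENSMUSG00000032575, mm10 chromosome 9, 106838312 to 106891979) had the smallest adjusted p of the members and was at 716, 814, 666, 695 and 749.8 in SPOP_CKI and 319, 278, 242, 308 and 287 in Cre_control (log2 fold change 1.35 with SE 0.14 and limma adjusted p = 0.000258). The means were 728 ± 56.9 and 287 ± 30.1 (SD, n = 5 each). Its annotated span overlaps those of Rbm15b on the same strand and Dcaf1 on the other, at mean levels of 402 and 470.2 scaled reads over all libraries against 508 for Manf, and no source used here gives the strand setting of the counting. Creld2 was at 260.2, 448, 305, 276 and 208 in SPOP_CKI and 173, 179, 134, 199 and 124 in Cre_control, library 2 being the highest (log2 fold change 0.86 with SE 0.23 and limma adjusted p = 0.0211). The call for Creld2 was lost without Cre_control library 3 or 5.

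**Figure D2:**
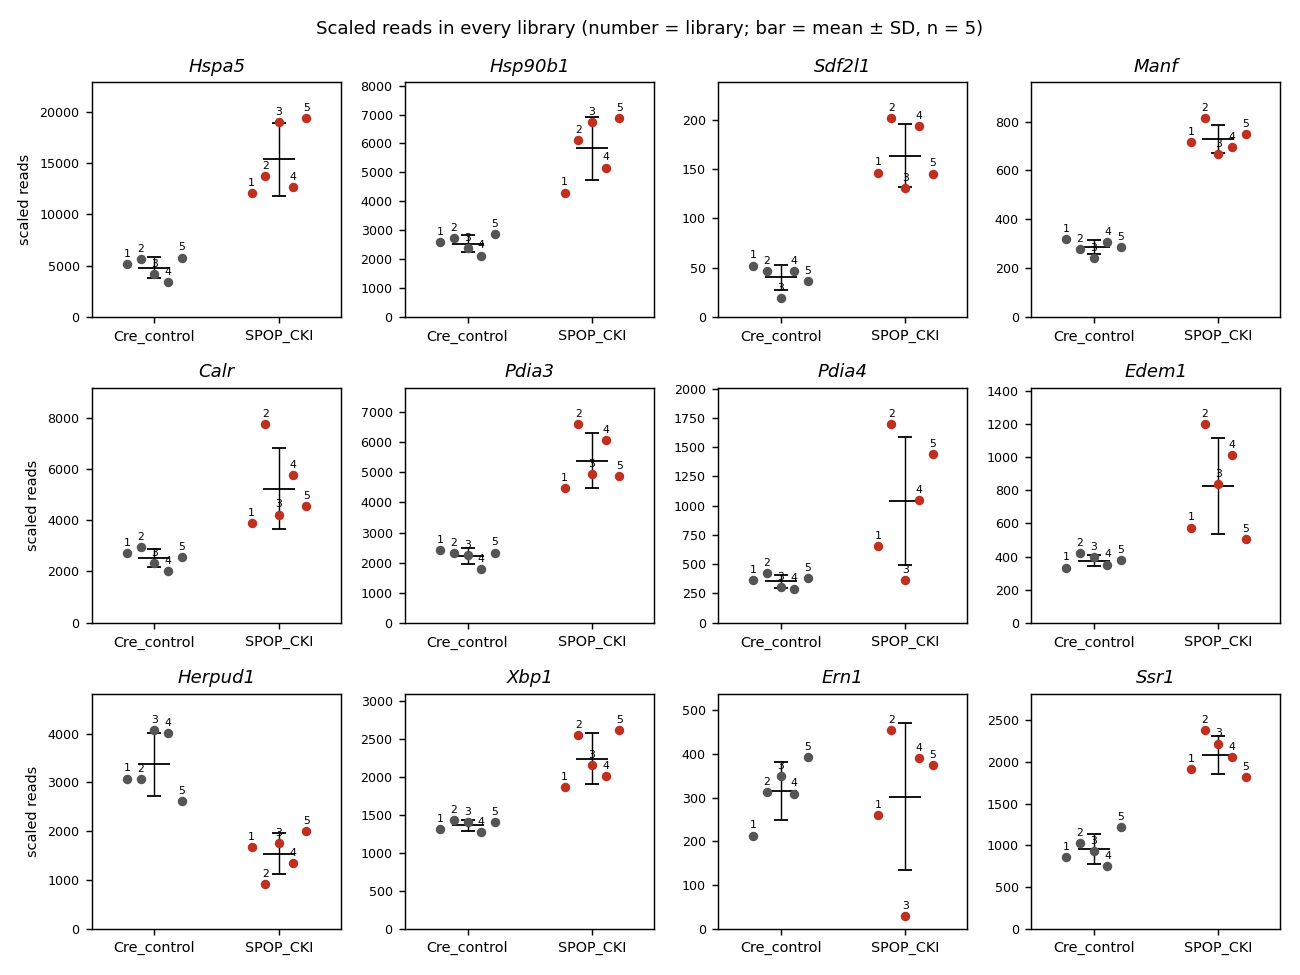
Scaled reads of 12 members in each library (points, numbered by library; bars are mean ± SD, n = 5 per group; each vertical axis starts at 0). The groups are apart for 10 of the 12; they overlap for Pdia4 and Ern1, which stood in library SPOP_CKI 3 at 367 and 28.9.

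Calreticulin and calnexin hold newly made glycoproteins through their sugar chains, calreticulin free in the lumen and calnexin in the membrane. Calr was at 3880.3, 7751, 4221, 5754 and 4534 in SPOP_CKI libraries 1 to 5 and at 2709, 2947, 2337, 2016 and 2566 in Cre_control (log2 fold change 1.02 with SE 0.20 and limma adjusted p = 0.00613). Library SPOP_CKI 2 was the highest and library 4 the next. Canx was at 4565, 5629.5, 6102, 5306 and 6433 and 3747, 3691, 3954, 2908 and 4354, a 1.51-fold rise (log2 fold change 0.59 with SE 0.16 and limma adjusted p = 0.0217). Here the groups nearly met, and the call was lost with centring by GC content (log2 fold change 0.25) and without Cre_control library 1, 2 or 4. Both lectin chaperones therefore rose, calreticulin by the larger fold.

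Disulfide isomerases form, break and shuffle disulfide bonds in the lumen. Pdia3 (ERp57), which works with calnexin and calreticulin, was at 4476, 6606, 4931, 6071 and 4876 in SPOP_CKI and 2417, 2326, 2255, 1771 and 2330.0 in Cre_control, a 2.42-fold rise (log2 fold change 1.27 with SE 0.16 and limma adjusted p = 0.000618). All SPOP_CKI libraries were at least at 4476 and all Cre_control libraries at most at 2417. P4hb (PDI), also the beta subunit of collagen prolyl 4-hydroxylase, was at 6365, 7453, 6707, 6571 and 6327 and 4196, 4369, 3483, 3468 and 4352 (log2 fold change 0.76 with SE 0.14 and limma adjusted p = 0.00407). Its SPOP_CKI libraries differed little among themselves. Pdia6, an isomerase that also acts on IRE1, was at 1604, 2956, 1721, 2340.2 and 1461 in SPOP_CKI, with library 2 highest, and 1089, 1181, 840.1, 1068 and 862 in Cre_control (log2 fold change 0.96 with SE 0.21 and limma adjusted p = 0.00847). Pdia4 (ERp72) averaged 1043 ± 547 against 354 ± 55.2 (log2 fold change 1.37 with SE 0.36 and limma adjusted p = 0.0205), from 367 in library SPOP_CKI 3, inside the Cre_control range of 291 to 423, to 1698 in library 2. The Pdia4 call was lost without Cre_control library 4. Pdia5 and Txndc5 did not pass over all libraries with limma. Pdia5 ranged from 24.8 in library SPOP_CKI 5 to 252 in library 3, against 36.4 to 65.4 (adjusted p = 0.203), and passed without SPOP_CKI 5 (log2 fold change 1.51, limma adjusted p = 0.0207), with DESeq2 and with array weights. Txndc5 (ERp46) was at 949.5, 2415, 968, 1728 and 954 against 921, 903, 711, 967 and 810.3 (adjusted p = 0.123), with libraries 2 and 4 well above every control, library 3 just above and libraries 1 and 5 near the top of the control range. Txndc5 passed with DESeq2, with array weights, with GC centring and without the libraries with Xist reads. It overlaps Bmp6, at a mean of 1199.9, on the other strand. Of the 6 isomerases 4 rose and 0 fell, with a median log2 fold change of 0.98. These are 66.7% and 0.0%, against 10.0% and 12.3% of all tested genes.

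The SPOP_CKI libraries did not rank alike across the members. Of the 18 members that rose, 11 were highest in library SPOP_CKI 2, among them Calr, Pdia3, Pdia4 and Pdia6, 5 in library 5, among them Hspa5 and Hsp90b1, 2 in library 3 and 0 in libraries 1 and 4. The summed activated fibroblast markers were 14327, 33504, 12719, 60223 and 8508 in SPOP_CKI libraries 1 to 5, all above the highest Cre_control sum of 4233. Without libraries SPOP_CKI 2 and 4 the log2 fold change of Hspa5 was 1.80, of Hsp90b1 1.21, of Manf 1.31 and of Pdia3 1.11, with limma adjusted p of 0.00338, 0.00699, 0.00256 and 0.00413. Hyou1, Dnajb11, Creld2, Canx and Pdia4 lost their calls. The part of RNA from fibroblasts, or from the other cell types whose markers were highest in libraries 2 and 4, was not tested for any of the 18.

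**Figure D3:**
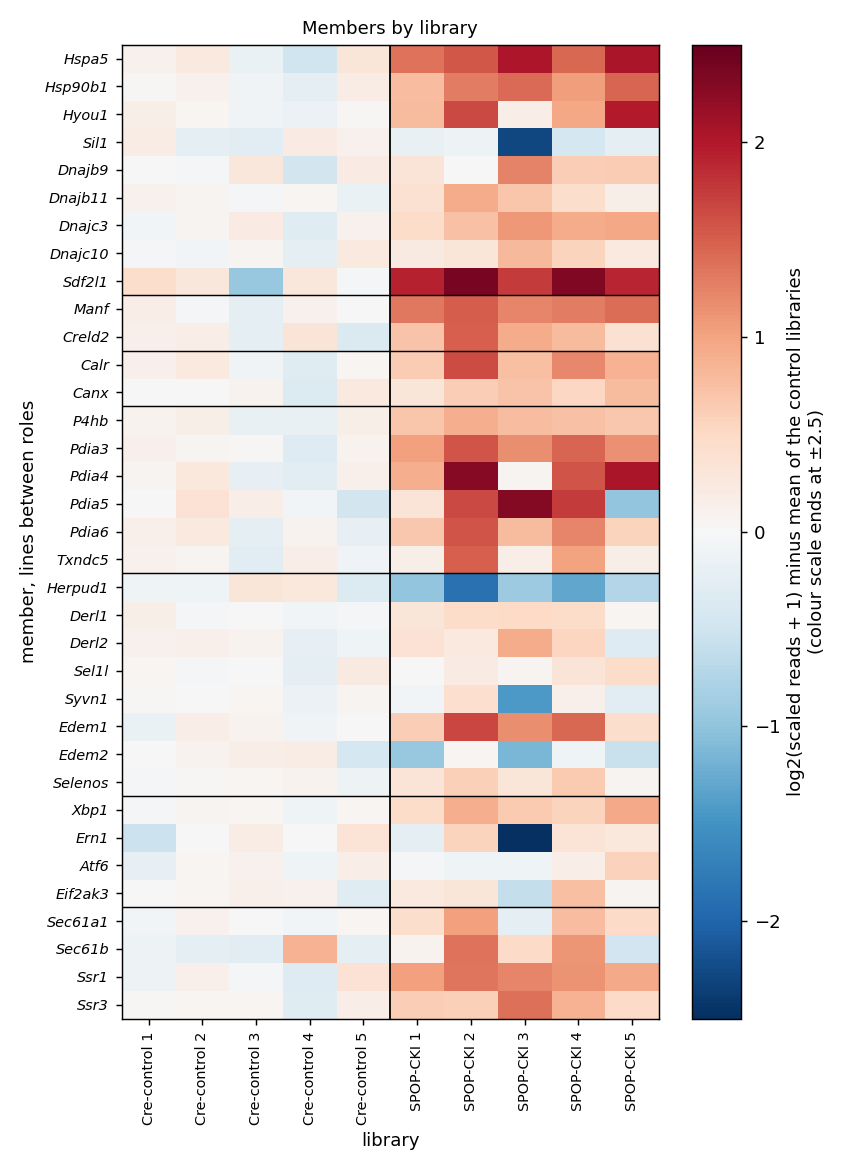
Colour gives log2(scaled reads + 1) of each tested member (rows, lines between roles) in each library (columns) minus the mean of the 5 Cre_control libraries; the scale ends at ±2.5. SPOP_CKI columns are red for most folding genes, with Sil1 among the exceptions, and Herpud1 is blue in all 5; Ern1 and Sil1 are at their deepest blue in SPOP_CKI 3.

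Of the degradation genes, 1 fell, 1 rose and the other tested ones did not pass. Herpud1 encodes HERP, a membrane protein that organises the HRD1 ubiquitin ligase complex and is itself a known target of the unfolded protein response. Herpud1 (ENSMUSG00000031770, mm10 chromosome 8, 94386438 to 94395377) was at 1666, 916, 1759, 1344 and 2003 in SPOP_CKI libraries 1 to 5 and at 3076, 3069, 4073, 4006 and 2619 in Cre_control libraries 1 to 5. Every SPOP_CKI library lay below every Cre_control library. The means were 1538 ± 420.0 and 3369 ± 640.2 (SD, n = 5 each), so that SPOP_CKI was 2.23-fold lower and Herpud1 was the 1 member that fell (log2 fold change −1.16 with SE 0.22 and limma adjusted p = 0.00496). Its call held under all 22 alternatives of scaling, test and left-out libraries, with log2 fold changes from −1.38 to −0.88. Per kilobase of gene length it had the highest Cre_control level of the members, 1444, and 659 in SPOP_CKI.

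The Herpud1 promoter is printed because it carries stress elements although the gene moved against the chaperones. In RefSeq's window on GRCm38.p6 (chr8:94386179-94386478, plus strand) the capitals mark, in order, TGATGCAA on the reverse strand (hence read as ttgcatca), the core bound by ATF4 with its partners, and the fixed letters of ERSE-II, ATTGG and CCACG with 1 base of any kind between them.
Herpud1 promoter: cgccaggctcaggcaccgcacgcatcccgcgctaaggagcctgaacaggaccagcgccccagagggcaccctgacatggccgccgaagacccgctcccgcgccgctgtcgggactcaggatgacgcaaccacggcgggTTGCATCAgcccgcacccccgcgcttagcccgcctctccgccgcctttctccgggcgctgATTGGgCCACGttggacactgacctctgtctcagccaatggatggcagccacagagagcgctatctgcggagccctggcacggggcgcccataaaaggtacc

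ERSE-II starts 52 bases before RefSeq's start of Herpud1 (94386429), which lies 9 bases before that of the deposited table, and the ATF4 core 112 bases before it. Among the members with a window only Herpud1 and Dnajb11 held ERSE-II, on either strand, as did 0.0365% of all windows. Dnajb11 rose and Herpud1 fell, so the 2 members in which it was found went opposite ways. The 6 members without a window, of which 2 rose, may hold it too. TGATGCAA was found in Herpud1 alone of the 30 members and in 0.895% of all windows. The 8-base element UPRE, TGACGTGG, bound by XBP1, was found in Txndc5 alone and in 0.676% of windows. That match lies at 38528045 to 38528052 on chromosome 13, inside the gene from RefSeq's start at 38528824 (minus strand). It therefore belongs to a window around another start of Txndc5.

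Herpud1 and Hspa5 were also set side by side within each library. The ratio of Herpud1 to Hspa5 scaled reads was 0.138, 0.0666, 0.0924, 0.106 and 0.103 in SPOP_CKI libraries 1 to 5. In Cre_control libraries 1 to 5 it was 0.602, 0.548, 0.971, 1.19 and 0.453. Within a library the ratio does not depend on that library's size factor. Hspa5 was already higher and Herpud1 already lower in every SPOP_CKI library than in every Cre_control library. The ratios therefore had to separate the groups, and they are no further test of either gene.

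**Figure D4:**
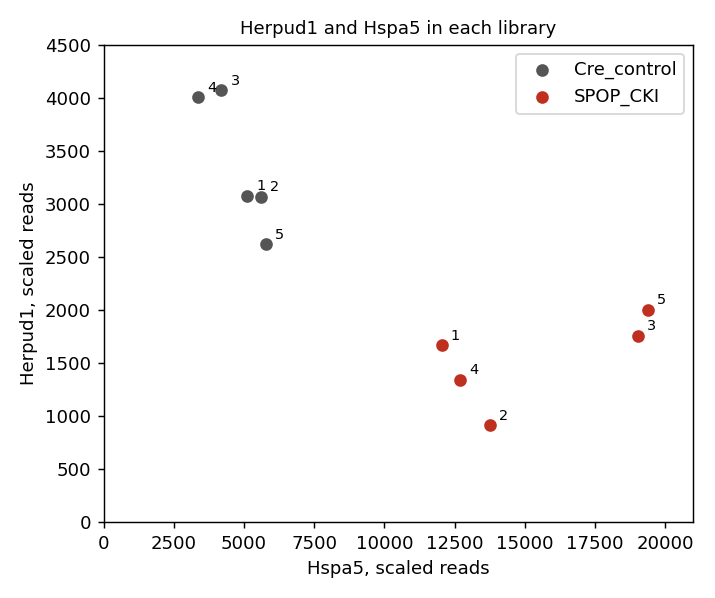
Herpud1 (vertical) against Hspa5 (horizontal) in scaled reads, 1 point per library with its number. The Cre_control libraries are at the upper left, with Hspa5 at 3354 to 5781, and the SPOP_CKI libraries at the lower right, with Hspa5 at 12043 to 19398 and Herpud1 at 916 to 2003.

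Edem1, a mannosidase-like lectin that hands misfolded glycoproteins to degradation, was the degradation gene that rose. It was at 575, 1200.2, 837, 1013 and 505 in SPOP_CKI and at 333, 423, 396, 352 and 376 in Cre_control (log2 fold change 1.06 with SE 0.23 and limma adjusted p = 0.00897), and libraries 2 and 4 were the highest. Its relative Edem2, which trims the first mannose, was at 85.0 to 194 against 139 to 215 (log2 fold change −0.54, adjusted p = 0.152). Edem2 fell by 0.88 with adjusted p = 0.0353 without SPOP_CKI libraries 2 and 4. The paralogs therefore stood on opposite sides of 0, with Edem2 not passing over all libraries.

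The derlins form part of the retrotranslocation channel. Derl1 was at 1518, 1692, 1722, 1675 and 1260.0 in SPOP_CKI and 1354, 1204, 1219, 1174 and 1188 in Cre_control (log2 fold change 0.35 with SE 0.13 and limma adjusted p = 0.077), and passed with DESeq2, with array weights and without SPOP_CKI 5. Derl2 was at 409 to 973 against 442 to 557 (adjusted p = 0.251), and overlaps Mis12, at a mean of 194, on the other strand. Derl3, known from secretory tissues, did not reach the filter, at 0.0 to 6.6 against 0.0 to 6.8. Sel1l and Syvn1 encode the scaffold and the ligase of the HRD1 complex. Sel1l was at 1381 to 1907 against 1174 to 1619 (adjusted p = 0.299). Syvn1 was at 371, 519.6, 142, 423 and 318 in SPOP_CKI and 395, 392, 401, 349.9 and 404 in Cre_control (log2 fold change −0.25, SE 0.29, adjusted p = 0.558), and its log2 fold change was 0.05 without library SPOP_CKI 3. It overlaps Mrpl49, at a mean of 424 against 372 for Syvn1, on the other strand. Selenos, a selenoprotein that links the derlins to the ATPase p97, was at 438 to 658 against 385 to 448 (adjusted p = 0.083). It passed with quantile normalization, DESeq2, array weights and without SPOP_CKI 5. Of the 8 tested degradation genes 1 rose, 1 fell and 6 did not pass, with a median log2 fold change of 0.28. That is 12.5% in each direction, near the 10.0% and 12.3% of all tested genes. Without SPOP_CKI library 5, 3 rose.

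Among the sensors and their effector, only the transcript of Xbp1 rose. Xbp1 was at 1862, 2554, 2153, 2008 and 2619 in SPOP_CKI libraries 1 to 5 and at 1307, 1430.1, 1406, 1269.7 and 1401 in Cre_control (log2 fold change 0.70 with SE 0.14 and limma adjusted p = 0.00543), with all SPOP_CKI libraries above all controls. Its activity depends on splicing by IRE1, which gene-level reads do not show. Ern1, which encodes IRE1, was at 260.2, 455, 28.9, 391 and 374 and 213, 312, 350.3, 309.5 and 393 (log2 fold change −0.49, SE 0.64, adjusted p = 0.6). Library SPOP_CKI 3 was far below the rest, and the log2 fold change was 0.23 without it (adjusted p = 0.422). Atf6 was at 1952, 1868, 1864, 2261 and 2996 in SPOP_CKI and 1741, 2064, 2148, 1869.5 and 2232 in Cre_control (log2 fold change 0.10 with SE 0.16 and limma adjusted p = 0.671). The groups overlapped, with libraries SPOP_CKI 4 and 5 above every control and Cre_control 1 the lowest. Eif2ak3, which encodes PERK, was at 254, 266, 141, 361 and 226 and 218, 223, 234, 231 and 175 (log2 fold change 0.15 with SE 0.23 and limma adjusted p = 0.662). Sensors are activated by oligomerisation, phosphorylation or cleavage, so their transcript levels are not a measure of activity.

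Library SPOP_CKI 3 bore on several of these values. On the log2 scale it was below the median of the other 4 SPOP_CKI libraries by over 1 for Ern1 (−3.68), Sil1 (−2.07), Pdia4 (−1.74), Syvn1 (−1.48) and Hyou1 (−1.14). It was above that median for Pdia5 (1.31), Dnajb9 and Ssr3 (both 0.76). Across the 35 members this difference had a Pearson r of −0.40 with the GC content of the transcript, and across 14201 tested genes r was −0.36. The genes of a library share its preparation, so the correlation describes that library. With each library centred by GC content, 18 members rose and 1 fell (9.05% and 9.06% of all tested genes). Canx and Ssr3 lost their calls there, and Txndc5 and Sec61a1 passed.

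At the translocation channel, Ssr1 and Ssr3 of the translocon-associated protein complex rose, and the channel subunits Sec61a1 and Sec61b did not pass. Ssr2 and Ssr4, further subunits of that complex, were tested among the other translocation genes below and did not pass. Ssr1 was at 1919, 2386, 2221, 2064 and 1823 in SPOP_CKI and 864, 1029.9, 929.6, 753 and 1222 in Cre_control, 2.19-fold (log2 fold change 1.13 with SE 0.16 and limma adjusted p = 0.00115). No library of one group reached the other. Ssr3 was at 4226, 4152, 7114, 4984 and 3844 and 2802, 2838, 2839, 2231 and 3098 (log2 fold change 0.79 with SE 0.19 and limma adjusted p = 0.0131), with library 3 highest, and its call was lost with GC centring (log2 fold change 0.36). Sec61a1, the pore subunit, was at 931, 1402, 586, 1167 and 948 in SPOP_CKI and 655, 735, 676, 656 and 705 in Cre_control (log2 fold change 0.50 with SE 0.21 and limma adjusted p = 0.103). It passed without library SPOP_CKI 3, its lowest (log2 fold change 0.68, limma adjusted p = 0.00558), and with GC centring (0.85). Sec61b, a small subunit of the channel, was at 90.9 to 324 against 104 to 233 (adjusted p = 0.321), and passed with array weights.

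Other genes of the ER were taken from lists made from textbook knowledge, with earlier results of these data known. Of 37 tested folding genes beyond the members 12 rose and 2 fell, with a median log2 fold change of 0.38. These are 32.4% and 5.41%, against 10.0% and 12.3% of all tested genes. Fkbp14, a prolyl isomerase that acts on collagens, rose 2.7-fold (log2 fold change 1.43 with SE 0.20 and limma adjusted p = 0.00128), and Hspa13, an Hsp70 family protein of the ER, 2.6-fold (log2 fold change 1.38 with SE 0.23 and limma adjusted p = 0.00237). Fkbp10, a collagen chaperone and prolyl isomerase of the same family, fell (log2 fold change −1.72 with SE 0.56 and limma adjusted p = 0.0466), at 266, 567, 46.4, 505 and 204 in SPOP_CKI against 896, 766, 624, 761 and 892. That call was lost without any 1 of the 5 Cre_control libraries, without SPOP_CKI 1 or 5, with edgeR and with no filter on low values. The log2 fold change of Fkbp10 ranged from −2.51 to −0.96 over the alternatives, and from −2.04 to −1.14 with 1 library left out. Without any 1 of Cre_control libraries 1 to 4 or without SPOP_CKI 5, 1 folding gene in place of 2 was lower. Of 33 tested genes of translocation and N-glycosylation 12 rose and 1 fell (36.4% and 3.03%, median 0.27). Spcs3, a subunit of the signal peptidase, rose 3.07-fold (log2 fold change 1.62 with SE 0.31 and limma adjusted p = 0.00513), with 6765 scaled reads in library SPOP_CKI 2. Stt3a and Magt1, a catalytic and an oxidoreductase subunit of oligosaccharyltransferases, rose 2.4-fold and 2.64-fold (limma adjusted p = 0.00151 and 0.00311).

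Of 31 tested degradation genes beyond the members, 5 were higher and 3 lower. These are 16.1% and 9.68%, near the 10.0% and 12.3% of all tested genes. The median was −0.05, and 0.01 without SPOP_CKI 2 or 0.03 with GC centring. Edem3 rose (log2 fold change 0.74 with SE 0.16 and limma adjusted p = 0.00987), while the p97 cofactor Ubxn6 (log2 fold change −1.89 with SE 0.56 and limma adjusted p = 0.0338) and Get4 (log2 fold change −0.77 with SE 0.24 and limma adjusted p = 0.0411), of the pathway for tail-anchored proteins, fell. The calls of Ubxn6 and Get4 were lost without any of the 5 Cre_control libraries and without SPOP_CKI 4. Both were also lost with no filter on low values and without SPOP_CKI 2 and 4 together. Get4 lost its call with edgeR, with GC centring and without SPOP_CKI 5 too. That of Edem3 was lost with GC centring (0.47). Of the list 0 were lower without Cre_control library 1, 2, 3 or 4 or without SPOP_CKI 4, and 2 were higher without Cre_control library 1 or 4. Without Cre_control library 5, 1 was lower, and without SPOP_CKI 3, 5 were. The higher ones were 3 without Cre_control library 2 or 3 or without SPOP_CKI 4. The difference between folding and degradation genes was not tested. Regulators of the response had 3 of 19 higher and 2 lower, 15.8% and 10.5%, also near the shares of all tested genes. Their median was −0.02. It lay within 0.06 to 0.24 with quantile normalization, edgeR, DESeq2, a pseudocount of 5, array weights or GC centring. The same held without SPOP_CKI 1 or 3 or the libraries with Xist reads. Without SPOP_CKI libraries 2 and 4, 0 were higher. Creb3l2, an ATF6-like membrane-bound factor, and Nfya, a subunit of NF-Y, rose 1.91-fold and 1.64-fold (adjusted p = 0.0147 and 0.0163), and Ddrgk1, a factor of the UFM1 modifier at the ER, fell (log2 fold change −1.03 with SE 0.29 and limma adjusted p = 0.0248). Ddrgk1 lost its call without Cre_control library 1, 2 or 4, without SPOP_CKI 4 and without SPOP_CKI 2 and 4 together. It also lost it with the replicate number as a block, with GC centring and without the libraries with Xist reads. Each of these left 1 regulator lower. Without SPOP_CKI 3, 5 regulators were higher.

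Between ER and Golgi, 10 of 31 traffic genes rose and 0 fell (32.3% and 0.0%, median 0.31), against 10.0% and 12.3% of all tested genes. Receptors for the KDEL tail return escaped chaperones to the ER. Kdelr3 was at 358, 449, 289.9, 464 and 234 in SPOP_CKI and 114, 112, 83.9, 90.4 and 80.4 in Cre_control, 3.63-fold (log2 fold change 1.86 with SE 0.23 and limma adjusted p = 0.000561). The coat genes Sec23b and Copb1 rose 2.06-fold and 1.98-fold (adjusted p = 0.0146 and 0.00478). The number higher was 6 without Cre_control library 4 and 5 without SPOP_CKI libraries 2 and 4. Over these 5 lists together, 42 of 151 tested genes rose and 8 fell, 27.8% and 5.30%. The number lower was 3 without Cre_control library 1, 2 or 4, 4 without Cre_control library 3 and 5 without SPOP_CKI 4.

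**Figure D5:**
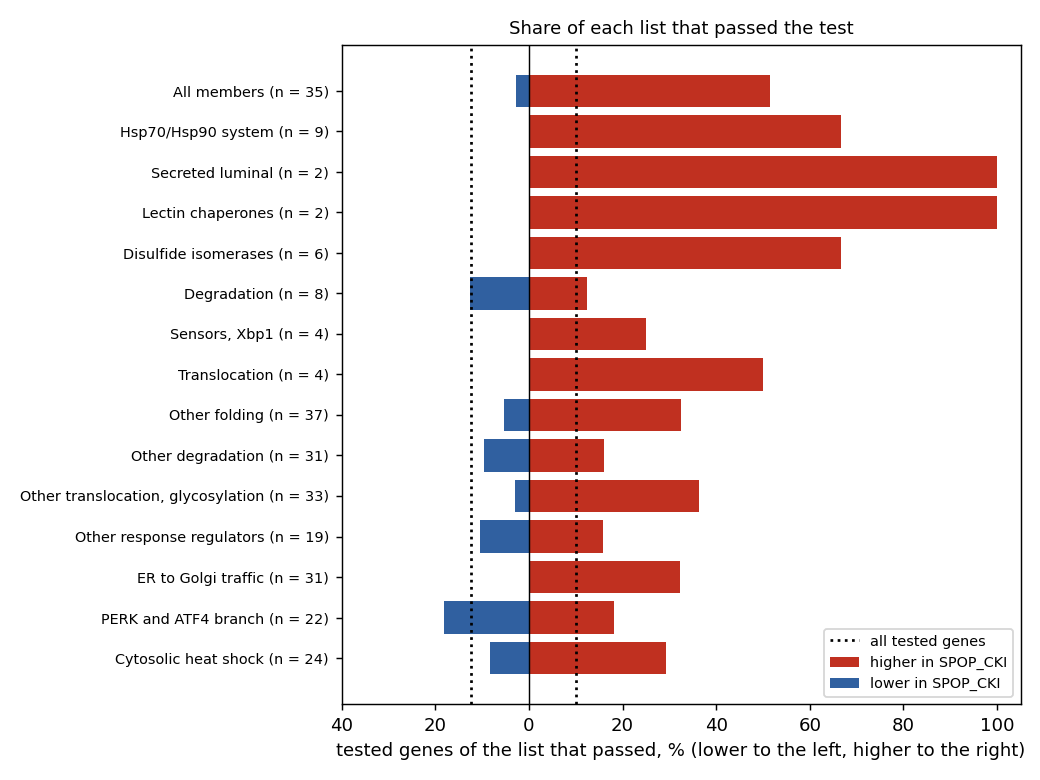
Bars give the percentage of tested genes in each list that rose (right) or fell (left), with the number tested in brackets; dotted lines are the shares over all 14212 tested genes, 10.0% and 12.3%. Among the members 51.4% rose and 2.86% fell, against 18.2% in each direction for the PERK and ATF4 branch.

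PERK acts through ATF4, which raises genes of amino acid supply and of the stress response. Of 22 tested genes 4 rose and 4 fell, with a median log2 fold change of 0.13. This is 18.2% in each direction, against 10.0% and 12.3% of all tested genes. The median was −0.13 without SPOP_CKI 2, −0.01 without SPOP_CKI 4, −0.39 without both and 0.35 without SPOP_CKI 3, and 6 fell without SPOP_CKI 3. Gdf15 rose (log2 fold change 5.26 with SE 1.04 and limma adjusted p = 0.00601) and so did Asns (log2 fold change 1.73 with SE 0.41 and limma adjusted p = 0.0127), while Ddit4 fell (log2 fold change −2.91 with SE 0.63 and limma adjusted p = 0.00896). Without SPOP_CKI libraries 2 and 4, 2 rose and 5 fell, and Asns lost its call. In the cytosol, 7 of 24 heat shock genes rose and 2 fell (median 0.38). These are 29.2% and 8.33%, against 10.0% and 12.3% of all tested genes. Hsp90aa1 (4.49-fold), Chordc1 (2.79-fold) and Hsph1 (2.54-fold) led the rises, with limma adjusted p from 0.000409 to 0.00642. Leaving out any of the 5 Cre_control libraries, or SPOP_CKI 4 or 5, left 1 lower. Differences between the lists were not tested.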

How the data were processed

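Poly(A) RNA of heart tissue was sequenced in 5 SPOP_CKI and 5 Cre_control libraries, and groups and replicate numbers were taken from the sample labels. The authors' deposited table gives each library's signal per gene, which was found to be reads divided by a size factor of that library. With that factor, 100.0% of values came out as whole reads (tolerance 0.001), and recovered depth was 15316293 to 17114869 reads per library. The same table holds the authors' log2 fold changes and p-values from their comparison of the groups. The submitters' processing notes name featureCounts 1.5.0-p3, DESeq2 1.20.0 and build mm10. No source used here gives the aligner, the annotation release or the strand setting.

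The 36 members and all gene lists were chosen with earlier results of these data known. Genes with at least 10 scaled reads in 5 or more libraries (14212) were tested on log2(value + 1) with limma 3.58.1 in R 4.3.3 (trend and robust, genotype the only term, two-sided), with Benjamini-Hochberg adjustment over all of them and a threshold of 0.05. Fold changes are on this scale and understate those of low genes. The method was tested on simulated data. On the recovered reads, edgeR 4.0.16 (quasi-likelihood) called 3168 genes (1683 higher, 1485 lower) and DESeq2 1.42.0 called 4141 (2115 higher, 2026 lower), against 3168 with limma (1421 higher, 1747 lower). Other alternatives were TMM and quantile scaling, no filter, other pseudocounts, array weights, a replicate block, centring by GC content in 20 bins (GENCODE M21, 99.9% of tested genes), and left-out libraries. Leaving out SPOP_CKI libraries 2 and 4 together was chosen after seeing the data.

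Named genes follow a rule. The 3 members of each role with the smallest p, the sensors and any member that fell are given in every library, and of each other list the called genes with the largest fold change, up to 3. Values of further members were added after they were seen. Promoter windows are RefSeq's on GRCm38.p6. The symbol Ufd1l was looked up as Ufd1. Hm13, Igj, Myh1, Myh2 and Myh4 were not analysed here.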

Additional observations from a re-analysis of the deposited data

Results flagged for a closer look

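In each group of 5 libraries, a gene was picked out where its highest or lowest library lay further from the nearest other than 0.71 of the group's whole range (Dixon's 95% critical value). Of 114 combinations of gene and group, over 57 genes, 9 met this, 7.89%, where chance gives about 1 in 20.

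In SPOP_CKI library 3, Sil1, an exchange factor of BiP, was the lowest at 56.9 scaled reads, the next library being at 207. In the same library Chordc1, a cytosolic cochaperone of Hsp90, was the highest at 2745, the next being at 1084. SPOP_CKI library 3 is also the library with 1968 tested genes at 0.

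Cre_control library 4 met the rule for 4 genes. Pdia3 was lowest there at 1771 (next 2255), Syvn1 lowest at 349.9 (next 392), Sec61b highest at 233 (next 116) and Ddit4, a stress-induced inhibitor of mTOR, highest at 4220 (next 1904). Cre_control library 1 had the highest Derl1 at 1354 (next 1219), library 3 the highest Derl3 at 6.8 (next 1.9) and library 5 the lowest Eif2ak3 at 175 (next 218). Pdia3 was called with and without Cre_control library 4. What sets these libraries apart was not tested.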

How the results depend on the processing

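Of the 19 members called, 13 kept their call and all 19 their direction under the 22 alternatives, while Canx, Creld2, Dnajb11, Hyou1, Pdia4 and Ssr3 lost the call under at least 1. Of those not called, 9 passed under at least 1. With 1 library left out, members higher ranged from 14 to 21 and members lower from 1 to 1, other ER genes higher from 30 to 46 and lower from 3 to 10, and all genes called from 1963 to 4400. Genes called rose to 5320 with array weights. Other ER genes lower were 8, against 4 with no filter, 14 with array weights and 4 with GC centring. Without SPOP_CKI libraries 2 and 4 the members lower were 2. Members that were not called changed direction as follows. With 1 library left out Syvn1 ranged from −0.42 to 0.05 and Ern1 from −0.75 to 0.23. Syvn1 went from −0.25 to 0.04 with array weights, 0.29 with GC centring, 0.10 without the libraries with Xist reads and 0.05 without SPOP_CKI 3. Ern1 went from −0.49 to 0.26, 0.47 and 0.23 with array weights, without the libraries with Xist reads and without SPOP_CKI 3. Atf6 went from 0.10 to −0.06 with GC centring and −0.02 without SPOP_CKI 5, and Eif2ak3 from 0.15 to −0.10 without SPOP_CKI 2 and 4. The causes were not tested. The median of all genes moved between −0.16 and 0.03.

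Same-numbered libraries of the groups did not pair: the correlations of their deviations were 0.03 to 0.16, over 0.1 for 2 of 5, and 2 of 5 numbers matched their own best. With the replicate number as a block, 2946 genes were called, with 18 members higher and 1 lower and 38 other ER genes higher and 9 lower. Depth limits Derl3, at 0 to 6.8 scaled reads.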

Other observations

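Collagen needs its own ER helpers, of which 4 are given here, picked after their values were seen. Serpinh1, the collagen chaperone HSP47, was at 3756, 8312, 2415, 5381 and 4316 in SPOP_CKI libraries 1 to 5 and at 2226, 2306, 1659, 1995 and 1339.7 in Cre_control (log2 fold change 1.25 with SE 0.29 and limma adjusted p = 0.0126). Fkbp14 was at 335, 468, 477, 424 and 275 in SPOP_CKI and 177, 165, 132, 118 and 132 in Cre_control, with the groups apart. Fkbp10, the other collagen prolyl isomerase among them, fell, at 266, 567, 46.4, 505 and 204 in SPOP_CKI and 896, 766, 624, 761 and 892 in Cre_control (log2 fold change −1.72 with SE 0.56 and limma adjusted p = 0.0466). Its call was lost without any 1 of the Cre_control libraries, without SPOP_CKI 1 or 5, with edgeR and with no filter on low values. P3h1, a collagen prolyl 3-hydroxylase, was at 328, 599.7, 138, 538 and 241 in SPOP_CKI and 320.4, 325, 295, 302 and 273 in Cre_control (log2 fold change 0.09 with SE 0.35 and limma adjusted p = 0.86). Activated fibroblast markers were highest in SPOP_CKI libraries 4 and 2, and Serpinh1 in libraries 2 and 4. The part of fibroblast RNA in these values was not tested.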
